A study of Mus musculus with 62 samples.

Results

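The proteasome genes of mouse gastrocnemius muscle were taken as every gene symbol of the deposited table that starts with Psma, Psmb, Psmc, Psmd, Psme, Psmf or Psmg followed by a digit, without symbols marked as pseudogenes. This gave 50 of 47643 symbols. The 62 RNA libraries came from females aged 2 months. CAC mice carried melanoma cells that cause cachexia, a tumour-driven loss of muscle and fat. NCAC mice carried melanoma cells that do not cause it, and Con mice had a mock injection. Muscle was taken after 2, 4, 6 or 8 weeks, with 5 libraries in each of the 12 groups except CAC at 8 weeks, which had 7. All groups share sex, tissue and the age given in the labels, and the labels name no transgene, deletion or drug. The series design calls the animals NCI Ath/nude mice and the sample labels call them C57BL/6J, so the strain is not settled here. A treatment tag that names the cachectic cells for every library was not used, and groups were read from each sample's description. The labels used here do not name the melanoma lines. They call the libraries biological replicates, without saying how many cultures or litters lay behind them.

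The proteasome is the protease that destroys proteins tagged with ubiquitin. Its core is a barrel of stacked rings, in which alpha subunits form the gate and 3 of the beta subunits, encoded by Psmb5, Psmb6 and Psmb7, cut peptide bonds. A cap made of a base and a lid binds ubiquitin chains, removes them, unfolds the substrate with ATPases and feeds it into the core. Interferon and immune cells bring in the immunoproteasome, in which Psmb8, Psmb9 and Psmb10 replace Psmb5, Psmb6 and Psmb7. In wasting muscle the proteasome works downstream of the muscle ubiquitin ligases Trim63 (MuRF1) and Fbxo32 (atrogin-1).

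Of the 50 genes, 31 encode subunits of the core, base and lid, called 26S subunits here. A further 3 are immunoproteasome genes, 6 encode activators and an inhibitor, and 7 encode assembly chaperones. Psma8 and Psmb11 encode core subunits known from testis and thymus. Psmc3ip, a meiotic recombination factor, is not a proteasome subunit and entered by its name. The 48 genes with at least 1 TPM in at least 5 libraries were tested, among 12364 genes of the table. TPM is a share of a library's RNA corrected for gene length. Psma8 reached at most 0.298 TPM and Psmb11 at most 0.0368 TPM in any library, and neither was tested.

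The promoters of 5 members are shown first because the results return to these genes. Against Con at 8 weeks Psmd4 had the highest change of the cap's base, Psmd11 the highest of its lid and Psmc6 the lowest of the base. Psmb5 and Psmb6 encode catalytic subunits. At 8 weeks Psmc6, Psmb5 and Psmb6 were below the median change of all genes and Psmd4 and Psmd11 above it. Sequences are RefSeq bases upstream of the gene start on build GRCm38.p6, read in the direction of the gene and ended before the first annotated exon. Capitals mark matches on either strand to TGACNNNGC, the core of the antioxidant response element that NRF1 (Nfe2l1) and NRF2 bind, to CCAAT, or to the interferon-stimulated response element, named here without its letters.
Psmd4, chr3:95042615-95042864, minus strand: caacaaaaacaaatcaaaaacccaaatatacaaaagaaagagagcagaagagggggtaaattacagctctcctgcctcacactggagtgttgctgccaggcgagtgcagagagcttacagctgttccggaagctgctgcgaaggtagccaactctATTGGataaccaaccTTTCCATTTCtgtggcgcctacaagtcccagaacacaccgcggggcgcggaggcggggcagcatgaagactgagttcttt
Psmd11, chr11:80428365-80428614, plus strand: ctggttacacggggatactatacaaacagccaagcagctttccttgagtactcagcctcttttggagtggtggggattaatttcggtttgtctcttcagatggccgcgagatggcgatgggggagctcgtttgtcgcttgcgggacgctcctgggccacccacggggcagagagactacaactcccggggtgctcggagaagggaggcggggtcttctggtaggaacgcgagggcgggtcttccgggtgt
Psmc6, chr14:45329574-45329787, plus strand: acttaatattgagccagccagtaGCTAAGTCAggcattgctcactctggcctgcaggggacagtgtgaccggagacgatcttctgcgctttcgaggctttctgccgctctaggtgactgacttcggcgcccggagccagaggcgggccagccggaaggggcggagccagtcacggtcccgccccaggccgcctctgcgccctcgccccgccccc
Psmb5, chr14:54618023-54618245, minus strand: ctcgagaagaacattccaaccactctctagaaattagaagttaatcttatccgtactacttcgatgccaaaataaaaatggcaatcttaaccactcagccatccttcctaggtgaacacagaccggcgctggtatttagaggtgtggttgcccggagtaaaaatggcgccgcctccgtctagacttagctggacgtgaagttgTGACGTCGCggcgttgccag
Psmb6, chr11:70525107-70525356, plus strand: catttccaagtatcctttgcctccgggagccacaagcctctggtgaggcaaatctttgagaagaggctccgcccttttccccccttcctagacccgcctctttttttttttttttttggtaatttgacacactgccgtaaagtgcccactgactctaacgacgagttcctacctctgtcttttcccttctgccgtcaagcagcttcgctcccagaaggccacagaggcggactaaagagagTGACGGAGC

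RefSeq held a promoter for 42 of the 50 members. In the 250 bases before the start, TGACNNNGC was found in 5 of 42 members, or 11.9%, against 11.5% of 27025 genes. The 5 were Psmb5, Psmb6, Psmc6, Psmd9 and Psmd12. CCAAT was found in 15 of 42 members, or 35.7%, against 37.5% of all genes, with 5 of the 15 among the 7 alpha subunit genes. The STAT motif TTCNNNGAA was found in 2 members, Psmb8 and Psmg1, or 4.76% against 8.13%. The interferon-stimulated response element was found in 3 members, Psmd4, Psmd9 and Psmb3, or 7.14% against 3.46%. A match is only a run of letters, and these shares carry no test.

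In Con muscle the levels spanned a wide range. Over the 20 Con libraries Psmb1, a core beta subunit, averaged 221 ± 10.6 TPM (SD), the highest of the members, followed by Psmc5, a base ATPase, at 194 ± 9.82 TPM. The catalytic subunit genes Psmb6, Psmb5 and Psmb7 averaged 157, 155 and 123 TPM. The immunoproteasome genes stood far lower, Psmb10 at 16.5, Psmb8 at 5.30 and Psmb9 at 2.19 TPM. The immunoproteasome trio summed to 51.2 TPM in Con replicate 1 of 8 weeks and to 18.5 to 27.2 TPM in the other Con libraries of that week. The constitutive trio summed to 417 to 475 TPM there.

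The libraries carried the markers of muscle. The 9 muscle fibre markers summed to 96183 to 134345 TPM in CAC, 128760 to 149894 in NCAC and 115788 to 137265 in Con at 8 weeks. The 13 macrophage markers were all higher in CAC than in Con at 8 weeks. They summed to 301 to 969 TPM, against 98.1 to 353 in Con and 50.6 to 197 in NCAC. The 5 endothelial markers summed to 113 to 187 TPM in CAC, 67.3 to 101 in Con and 70.1 to 97.6 in NCAC at 8 weeks. The 6 fibroblast markers summed to 475 to 1111 TPM in CAC, 325 to 491 in Con and 262 to 595 in NCAC. Of 12 lymphocyte markers only Ighm passed the filter and it was lower in CAC. The T cell genes Cd3d, Cd3e, Cd3g and Cd8a were at 0 in 41 to 51 of 62 libraries. Cd4 was above 0 in all 62 but reached at most 0.41 TPM. Of 7 melanocyte markers only Sox10 and Mitf passed the filter, and Tyr, Tyrp1, Dct, Mlana and Pmel stayed at or below 1.15 TPM. Their part in the results below was not tested. In bulk RNA, fewer cells of a type and less RNA per cell cannot be told apart.

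TPM is a share, and shares moved together in CAC muscle. At 8 weeks the median of all tested genes was 0.36 higher in CAC than in Con on the log2(TPM + 1) scale, and genes of the mitochondrial genome took 20.8% to 31.05% of TPM in CAC libraries against 28.6% to 35.9% in Con. Rescaling each library to a common median ratio of genes lowered the median change by 0.32. Counts are therefore given as deposited and after rescaling. A call means an adjusted p below 0.05 in limma's test, adjusted by Benjamini-Hochberg over all genes tested.

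At 2 weeks the proteasome genes of CAC muscle did not differ from Con by this test. None of the 48 was called, with 0 at an unadjusted p below 0.05, against 0.267% of all genes called higher and 0.0162% lower. Against NCAC, 0 were called as well (1.16% of all genes higher and 0.0162% lower), with 3 at an unadjusted p below 0.05, Psma3, Psmd5 and Psme2b. The 26S subunits of the 5 CAC libraries lay at medians of -0.11 to 0.11 relative to the Con mean (log2 ratio of TPM + 1).

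At 4 weeks 10 of 48 members rose against Con, where 23.0% of all genes were called higher and 2.38% lower. They were the cap genes Psmd1, Psmd2, Psmd4, Psmd7, Psmd11 and Psmc6, the core genes Psma3, Psma5 and Psmb1, and Psme4, which encodes the PA200 activator. CAC replicate 2 held most of this. Psmd4, the ubiquitin receptor of the base, stood at 107, 214, 107, 125 and 103 TPM in CAC replicates 1 to 5, against 91.7, 81.7, 86.6, 87.0 and 92.8 in Con. All 5 CAC libraries were above all 5 Con libraries, as for 1923 of 12364 genes tested and 10 of 48 members. Replicate 2 was far above the others. The log2 change of Psmd4 was 0.51 ± 0.17 (SE, adjusted p = 0.0273), and 0.32 without replicate 2 (adjusted p = 0.239). The call was also lost, narrowly, without Con replicate 2 (adjusted p = 0.0523) or Con replicate 4 (0.0506), with the change at 0.49 and 0.51. Replicate 2 had the highest TPM of its group for 30 of 31 26S subunits. Without it 1 member was called, Psma3. Trim63 in the 5 CAC libraries was 223, 1799, 218, 553 and 206 TPM, so replicate 2 also led there. With rescaling 1 member was called higher, Psmc6 (7.83% of all genes), and 2 lower, Psmd9 and Psmg1 (7.79%). The test pools the spread over all 12 groups, and the CAC libraries spread more than Con. The count fell when the 2 groups were fitted alone, as given below.

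At 6 weeks nearly the whole 26S proteasome was higher in CAC muscle. Of 48 members 36 rose and 0 fell, where 51.8% of all genes were called higher and 5.41% lower, and 30 of 31 26S subunits rose. The exception was Psmb7, the trypsin-like catalytic subunit, at 0.12 ± 0.07 (adjusted p = 0.121), which passed the test when CAC replicate 4 or 5 was left out, at 0.16 and 0.18 (adjusted p = 0.0404 and 0.0192). The median log2 change of the members was 0.42, against 0.28 over all genes. The summed 26S subunits took 4906 ± 1465 TPM in CAC (SD, n = 5), 3313 ± 107 in Con and 3102 ± 203 in NCAC.

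The highest changes at 6 weeks were those of Psmd4, Psma7 and Psmd8. Psmd4 stood at 344, 229, 145, 179 and 135 TPM in CAC, against 101, 93.1, 84.97, 92.0 and 91.0 in Con and 101, 80.4, 75.1, 84.8 and 89.6 in NCAC. The lowest CAC library was above every Con and NCAC library of that week. CAC lay wholly above Con for 3546 of 12364 genes tested and 20 of 48 members. It lay wholly above NCAC for 4923 genes and 30 members. The log2 change of Psmd4 was 1.06 ± 0.17 against Con (adjusted p = 7.14e-06) and 1.17 against NCAC. Psma7, an alpha ring subunit, stood at 196, 123, 87.0, 101 and 76.3 TPM in CAC and at 55.1 to 63.4 in Con, without overlap, a log2 change of 0.92 ± 0.17 (adjusted p = 4.61e-05). Psmd8, a lid subunit, was at 199.8, 203, 87.1, 110.1 and 96.5 TPM in CAC and at 57.4 to 81.0 in Con, again without overlap, and rose by 0.91 ± 0.18 (adjusted p = 8.42e-05). Of the cap genes Psmd2, a scaffold of the base, rose by 0.78 and Psmd11, a lid subunit, by 0.76.

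Of the 26S genes the catalytic beta subunits moved least. Psmb7 was at 173, 152, 121, 117 and 113 TPM in CAC and at 124, 125, 113, 126 and 128 in Con. CAC replicates 1 and 2 were above all Con libraries, replicates 3 and 4 within the Con range and replicate 5 at its lower end. Psmb6, the caspase-like subunit, rose by 0.17 ± 0.07 (adjusted p = 0.0309) and Psmb5, the chymotrypsin-like subunit that proteasome inhibitors target, by 0.25 ± 0.08 (adjusted p = 0.0099). Neither call held without CAC replicate 1, where Psmb5 was at 0.14 (adjusted p = 0.127) and Psmb6 at 0.079 (0.298). The Psmb6 call was also lost without CAC replicate 2, Con replicate 2 or Con replicate 3, with the change at 0.15 to 0.16. The non-catalytic beta genes Psmb1, Psmb3 and Psmb4 rose by 0.56, 0.53 and 0.48.

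Outside the 26S particle the 6-week changes were smaller. Of all genes 51.8% were called higher against Con at that week. Of the activators and inhibitor, 4 of 6 rose, Psme2, Psme3 and Psme4 and the inhibitor gene Psmf1, by 0.25 to 0.39. Psme1, which encodes the PA28 alpha subunit that pairs with the product of Psme2, was at 25.4 ± 2.13 TPM in CAC and 28.1 ± 2.43 in Con (log2 -0.14, not called). Of the assembly chaperones 2 of 7 rose, Psmg4 by 0.42 and Psmd5 by 0.29. Psmg2 was at 33.5 TPM in CAC and 33.4 in Con. Of the immunoproteasome genes 0 of 3 were called against Con, with Psmb10 at an unadjusted p below 0.05.

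The count at 6 weeks depended on the scaling. With rescaling 11 of 48 members were higher than in Con (15.6% of all genes), Psmd4, Psma7, Psmd8, Psmd2, Psmd11, Psmc2, Psmd3, Psmd1, Psmb1, Psma3 and Psma4. Psmd4 remained at 0.75 (adjusted p = 0.000195), Psma7 and Psmd8 at 0.60. Members lower after rescaling were 4 (16.7% of all genes), Psmb7 at -0.20, Psme1 at -0.44, Psmg2 at -0.30 and Psmg1. The 5 CAC libraries also differed among themselves: replicate 1 had the highest TPM of the group for 30 of 31 26S subunits and replicate 5 the lowest for 29. Without replicate 1 the count of called members was 30 of 48.

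**Figure D1:**
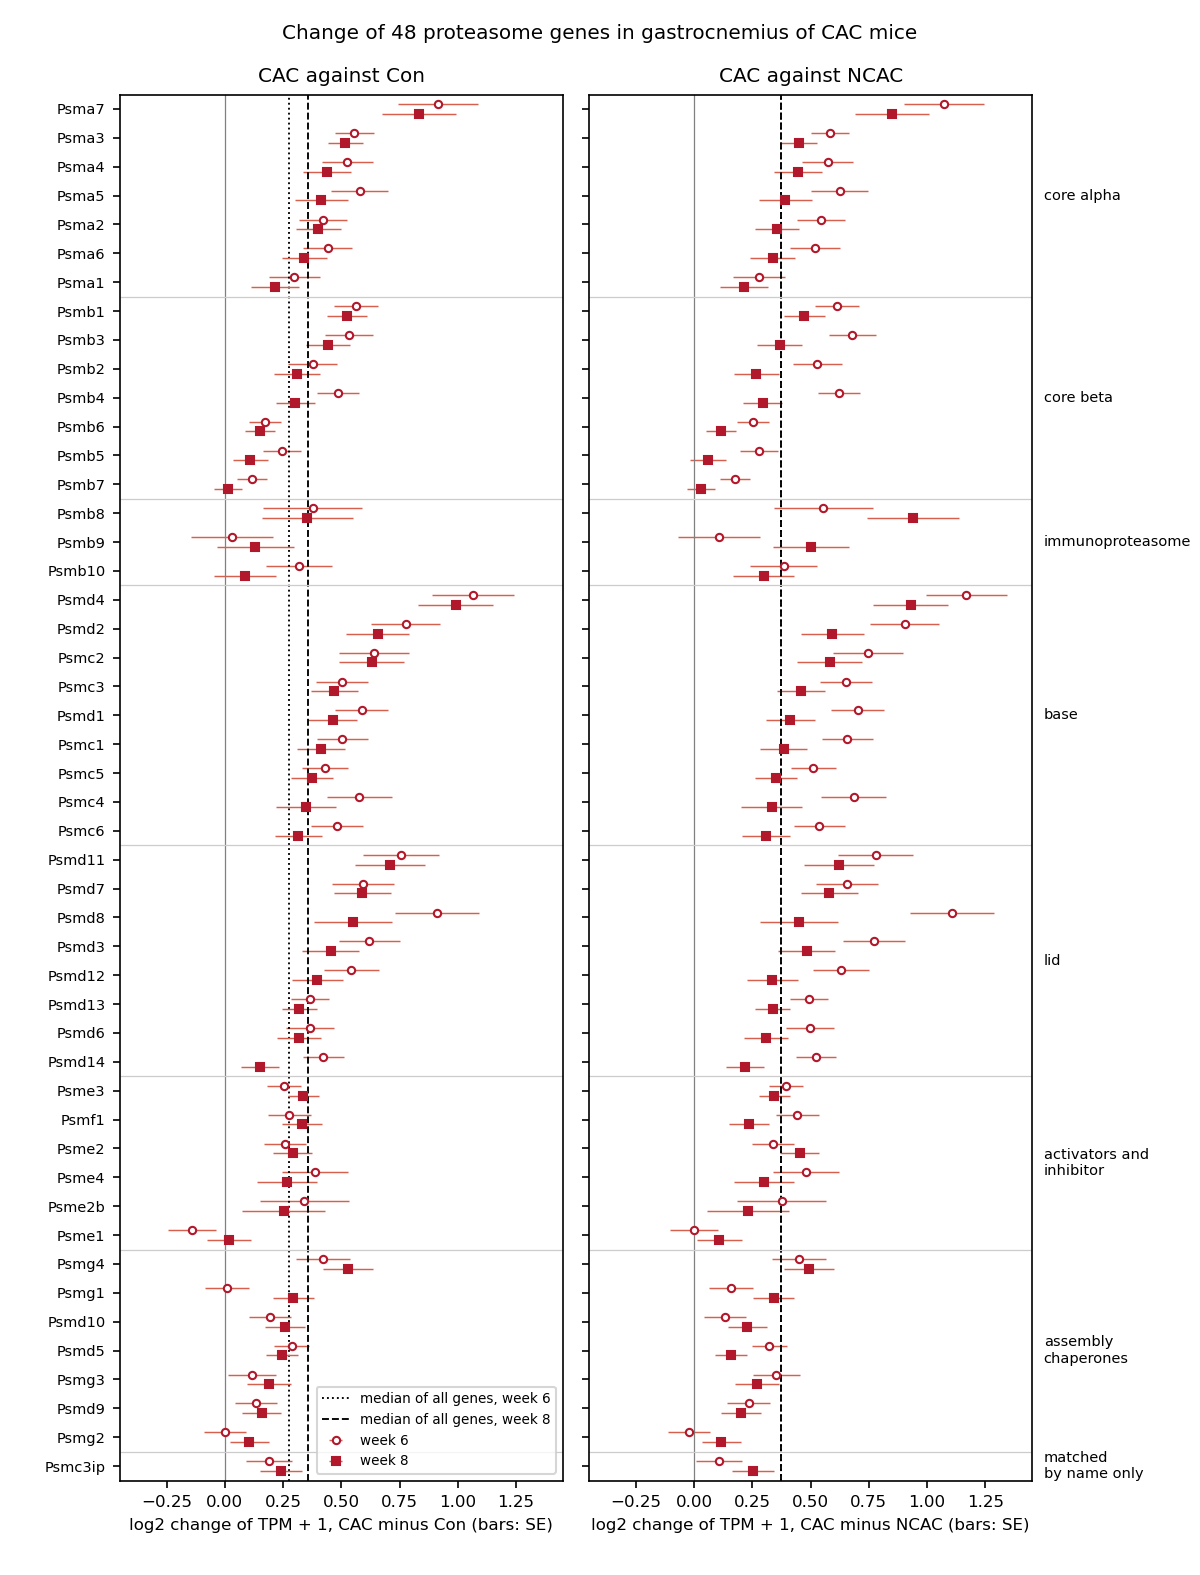
Change of the 48 tested genes in CAC muscle against Con (left) and NCAC (right), as log2 differences of TPM + 1 with the SE of limma; open circles are 6 weeks, filled squares 8 weeks, and the dotted and dashed lines are the medians of all tested genes at 6 and 8 weeks, which nearly coincide on the right. Psmd4 and Psma7 lie far to the right of those medians. Psmb5, Psmb6, Psmb7, Psme1 and Psmg2 are among the members to the left of them at 8 weeks. Against Con at 8 weeks the median of the members also lies to the left of that of all genes.

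At 8 weeks 35 of 48 members were higher in CAC than in Con and 0 lower, where 65.3% of all genes were called higher and 5.55% lower. The median log2 change was 0.33, below the 0.36 of all genes. In the 26S particle 27 of 31 rose, 9 of 9 base genes, 7 of 8 lid genes, 6 of 7 alpha genes and 5 of 7 beta genes. The base median was 0.46, the lid median 0.43, the alpha median 0.41 and the beta median 0.30. With rescaling 3 members were higher, Psmd4, Psma7 and Psmd11 (24.6% of all genes), and 7 lower, Psmb5, Psmb6, Psmb7, Psmd14, Psmd9, Psme1 and Psmg2 (21.2%).

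Psmd4 was again the member with the highest change. Its 7 CAC libraries ran from 104 over a median of 182 to 273 TPM, against 85.2, 91.4, 89.1, 88.5 and 88.8 in Con and 91.4, 89.5, 124, 83.7 and 79.3 in NCAC. All CAC libraries lay above all Con libraries, as for 3182 of 12364 genes tested and 12 of 48 members. For Psmd4 NCAC replicate 3 lay above the lowest CAC library. The log2 change was 0.99 ± 0.16 against Con (adjusted p = 1.36e-06) and 0.93 against NCAC, and 0.60 against Con after rescaling (adjusted p = 0.000563). Psma7 ran from 57.1 over 109.8 to 155 TPM in CAC and from 53.2 to 57.9 in Con, so that only the lowest CAC library reached the Con range; it rose by 0.83 ± 0.16 (adjusted p = 1.53e-05). Psmd11 ran from 30.4 over 45.7 to 80.9 TPM in CAC and from 27.6 to 32.5 in Con, with 1 CAC library within the Con range, and rose by 0.71 ± 0.15 (adjusted p = 6.12e-05). In the base the smallest rise was that of the ATPase gene Psmc6, at 0.32, and in the lid the lowest change was that of Psmd14, the deubiquitinase of the cap, at 0.15 (not called).

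The catalytic trio stayed near Con. Psmb7 ran from 118 over 125 to 144 TPM in CAC, against 120.2, 132, 128, 119.5 and 124 in Con, and the groups overlapped (log2 0.013 ± 0.06, adjusted p = 0.855). Psmb5 ran from 149.6 over 166 to 175 TPM in CAC, against 147, 172, 148, 147 and 147 in Con (0.11 ± 0.08, adjusted p = 0.19). Psmb6 ran from 159 over 178 to 190.5 TPM in CAC and from 149.7 to 171 in Con. It rose by 0.15 ± 0.06 (adjusted p = 0.0334), a call lost when CAC replicate 1, 3 or 5 or Con replicate 1 or 4 was left out, with the change at 0.13 to 0.14. After rescaling all 3 were lower in CAC, Psmb7 by -0.38 (adjusted p = 3.27e-05), Psmb5 by -0.28 (0.00562) and Psmb6 by -0.24 (0.00813). Small changes were not limited to the catalytic genes. Like Psmb5 and Psmb7, Psmd14 (0.15) and Psma1, the alpha gene with the lowest change, were not called as deposited. Psma1 was called when CAC replicate 3 or 4 or Con replicate 2 was left out, at 0.25 to 0.27. After rescaling Psmd14 was at -0.23 (called lower) and Psma1 at -0.17 (not called). A ratio of genes within a library does not depend on the scaling. The ratio of Psmd4 to Psmb7 TPM, a pair chosen after their values were seen, was 0.710 ± 0.0183 in Con (SD, n = 5), 0.757 ± 0.112 in NCAC and 1.47 ± 0.462 in CAC at 8 weeks (n = 7), and the lowest CAC library, at 0.830, lay above all Con libraries but below NCAC replicate 3, at 0.949.

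**Figure D2:**
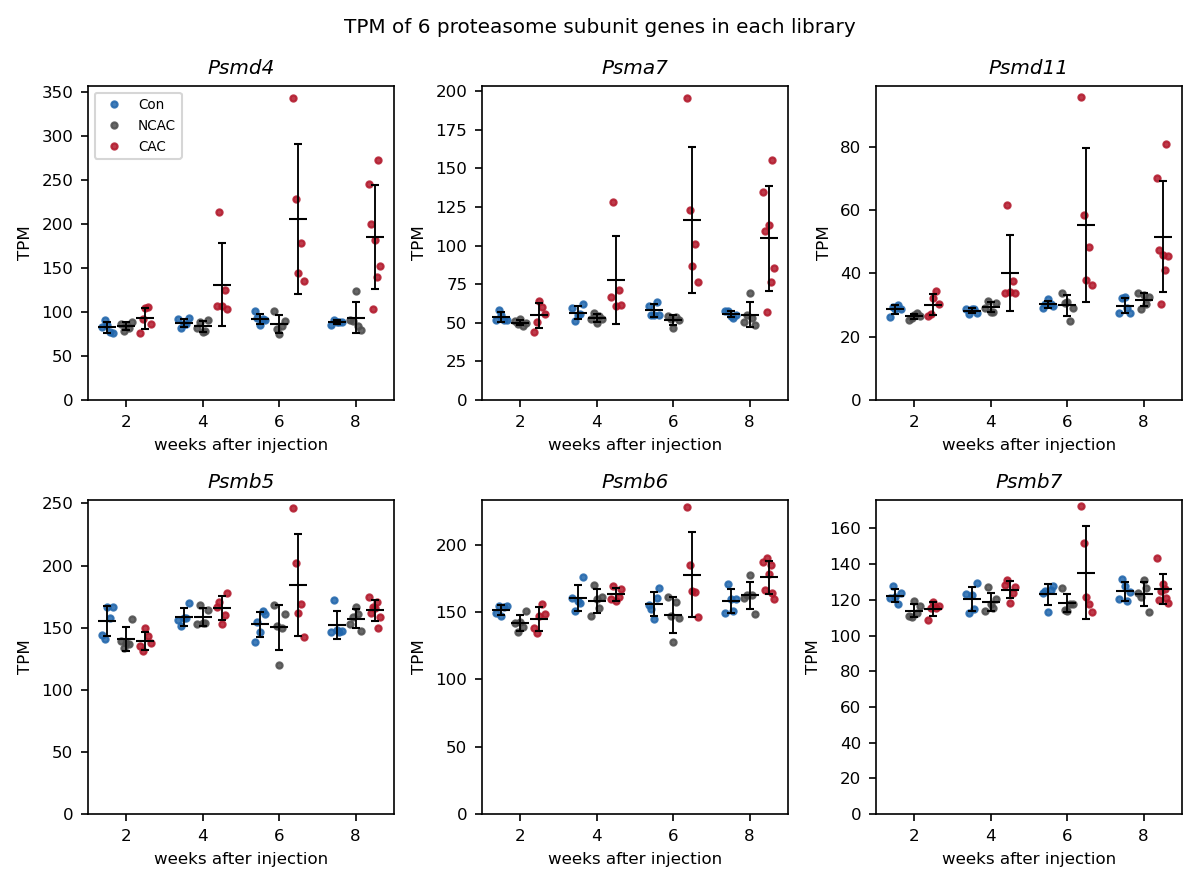
TPM of 3 members with a high change (Psmd4, Psma7, Psmd11, top) and of the 3 catalytic subunit genes (Psmb5, Psmb6, Psmb7, bottom) in each of the 62 libraries, by weeks after injection; points are libraries, horizontal marks the mean and bars the SD. The CAC points of the top row spread upward from 4 weeks on. Those of the bottom row stay nearer the Con points, with 2 libraries standing highest at 6 weeks. At 8 weeks the CAC median of Psmb6 lies above all Con points of that week, as does Psmb7 of CAC replicate 1.

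The smaller classes differed among their members at 8 weeks, where 65.3% of all genes were called higher against Con. Of the activators and inhibitor 3 of 6 rose, Psme3 (PA28 gamma) by 0.34, Psmf1 (PI31) by 0.33 and Psme2 (PA28 beta) by 0.29. Psme1 ran from 21.0 over 30.3 to 34.8 TPM in CAC and from 25.3 to 34.3 in Con, with the CAC range enclosing the Con range (log2 0.018). Psme2b, a close copy of Psme2 whose reads may be shared with it, was at 0.25 and not called. Among the assembly chaperones, which help build the core and the cap before the particle closes, 4 of 7 rose. Psmg4 was at 37.7 to 56.6 TPM in CAC, against 34.1, 31.1, 28.2, 28.3 and 33.8 in Con. CAC lay wholly above Con, as for 3182 of 12364 genes tested and 12 of 48 members. Psmg4 rose by 0.53 ± 0.11 (adjusted p = 3.63e-05). Psmg1, Psmd10 and Psmd5 rose by 0.29, 0.26 and 0.25, and Psmg2 had the lowest change of its class, 0.11 (not called). Psmc3ip, matched by name only, rose by 0.24 at levels near 1.5 TPM, a call lost without CAC replicate 4 (0.18, adjusted p = 0.071). After rescaling none of the smaller classes held a member called higher against Con (24.6% of all genes), and Psmc3ip was at -0.0095.

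CAC muscle also differed from NCAC, the tumour control. Against NCAC 10 of 48 members rose at 4 weeks (18.1% of all genes), 41 at 6 weeks (64.1%) and 41 at 8 weeks (67.5%), and 0 fell, where 1.59%, 4.64% and 4.80% of all genes were called lower. The comparisons share the CAC libraries with those against Con. At 6 weeks all 31 26S subunits rose, Psmb7 by 0.18, and at 8 weeks 27 of 31. The Psmb7 call was lost without CAC replicate 1 (0.083) or replicate 2 (0.13). At 4 weeks the count was 0 without CAC replicate 2, 3 without NCAC replicate 3, 5 without NCAC replicate 4 and 16 without CAC replicate 1. After rescaling 0 members were called at 4 weeks (3.27% of all genes higher, 5.09% lower). At 6 weeks 11 were higher (21.4%) and 5 lower (20.4%), and at 8 weeks 3 were higher (24.8%), Psmd4, Psma7 and Psmb8, and 7 lower (20.8%). NCAC did not differ from Con in any member at any week by limma's test (0% of all genes called), with 1, 0, 1 and 2 members at an unadjusted p below 0.05 at 2, 4, 6 and 8 weeks. The median NCAC change of the 26S subunits was between -0.10 and 0.02 at 4, 6 and 8 weeks.

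Over the weeks the difference from Con was not constant. An F test of the CAC effect across the 4 weeks called 9 of 48 members, against 12.1% of all genes. They were Psmb1, Psmb4, Psmb3, Psmd4, Psma7, Psma3, Psma4, Psmc6 and Psmc5. Psmd4 went from 0.51 at 4 weeks to 1.06 at 6 and 0.99 at 8 weeks, and Psmb1 from 0.32 to 0.56 and 0.52. The count was 0 after rescaling and ran from 2 to 25 when single libraries were left out, with 25 without CAC replicate 2 of 4 weeks and 2 without CAC replicate 1 of 2 weeks. For NCAC the F test called 0 members.

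The libraries of CAC muscle differed widely in the 26S subunits. At 8 weeks the median log2 ratio of the 31 subunits to the Con mean was 0.63 in CAC replicates 1 and 6, 0.46 in replicate 2, 0.39, 0.30 and 0.28 in replicates 4, 7 and 5, and 0.07 in replicate 3. In the library of replicate 3, Psmd4 was 104 TPM, Trim63 118 TPM and Fbxo32 45.8 TPM, the last 2 below the 5 Con libraries. In replicates 6 and 1, with Psmd4 at 273 and 245 TPM, Trim63 was 3202 and 2393 TPM and Fbxo32 913 and 673 TPM. Replicate 4 departed from this order, with Psmd4 at 182 TPM beside Trim63 at 240.2 TPM, where Con libraries reached 161 TPM. At 6 weeks replicate 1 had both the highest Psmd4, 344 TPM, and the highest Trim63, 2134 TPM. NCAC replicate 3 of 8 weeks stood above the other NCAC libraries, at 0.18 with Psmd4 at 124 TPM, and its Trim63 was 287 TPM.

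**Figure D3:**
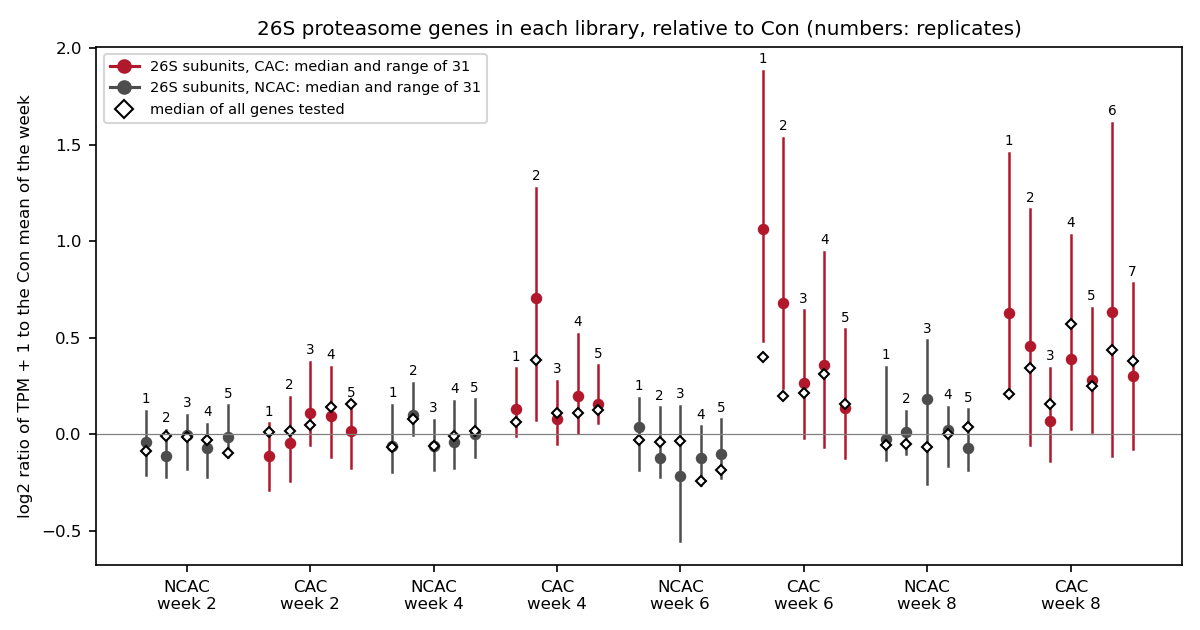
Median (circle) and range (line) over the 31 26S subunits of the log2 ratio of TPM + 1 to the Con mean of the same week, for each NCAC and CAC library; numbers are replicates and open diamonds the median of all tested genes. CAC replicate 2 at 4 weeks, replicates 1 and 2 at 6 weeks and replicates 1 and 6 at 8 weeks stand highest, and in CAC replicates 3, 4 and 7 at 8 weeks the median of all genes lies above that of the subunits.

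The immunoproteasome genes followed another order of libraries. Psmb8 was at 5.74 to 11.0 TPM in CAC at 8 weeks, with a median of 8.53, against 3.26, 5.08, 2.71, 3.47 and 4.41 in NCAC and 14.4, 4.21, 5.22, 3.39 and 7.03 in Con. Every CAC library was above every NCAC library, as for 3025 of 12364 genes tested and 7 of 48 members. Con replicate 1 was above every CAC and NCAC library. Against NCAC Psmb8 rose by 0.94 ± 0.20 (adjusted p = 5.12e-05), and by 0.59 after rescaling (adjusted p = 0.0125). Psmb9 rose by 0.50 (adjusted p = 0.0057) and Psmb10 by 0.30 (adjusted p = 0.0406). The Psmb10 call was lost without CAC replicate 3, 4 or 7 or NCAC replicate 3 or 4, with the change at 0.23 to 0.28. Neither gene was called after rescaling, where Psmb9 was at 0.22 and Psmb10 at -0.090. Against Con 0 of 3 were called at 8 weeks (65.3% of all genes higher), with 0 at an unadjusted p below 0.05. Psmb8 was at 0.35, Psmb9 at 0.13 and Psmb10 at 0.085. After rescaling they were at 0.0096, -0.14 and -0.29, and 0 were called.

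Con replicate 1 of 8 weeks decided that comparison for TPM as deposited. It held 14.4 TPM of Psmb8, 5.27 of Psmb9 and 31.5 of Psmb10, where the other 4 Con libraries held 3.39 to 7.03, 1.30 to 2.91 and 13.8 to 17.4. It also held 5.69 TPM of Tap1, the peptide transporter gene next to Psmb9, and 527 TPM of B2m, against at most 1.91 and 253 in the other 4. Both genes were chosen after their values were seen. Its macrophage markers summed to 353 TPM, against 98.1 to 201 in the other 4; their part in these values was not tested. Without this library all 3 genes rose in CAC against Con, Psmb8 by 0.64 (adjusted p = 0.00217), Psmb9 by 0.35 (0.0377) and Psmb10 by 0.27 (0.0464), where 64.2% of all genes were called higher, 5.05% lower and the median of all genes was 0.37. With rescaling and without it 0 of 3 were called (23.1% of all genes higher, 19.8% lower), with Psmb8 at 0.29 (adjusted p = 0.201), Psmb9 at 0.078 and Psmb10 at -0.11, an alternative chosen after the data were seen. As deposited and without this library, NCAC lay closer to Con, with Psmb8 at -0.30 in place of -0.58. At 6 weeks, Psmb8 against Con was called without Con replicate 1 of that week (0.51, adjusted p = 0.0436) and was not called with it (0.38, adjusted p = 0.122).

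**Figure D4:**
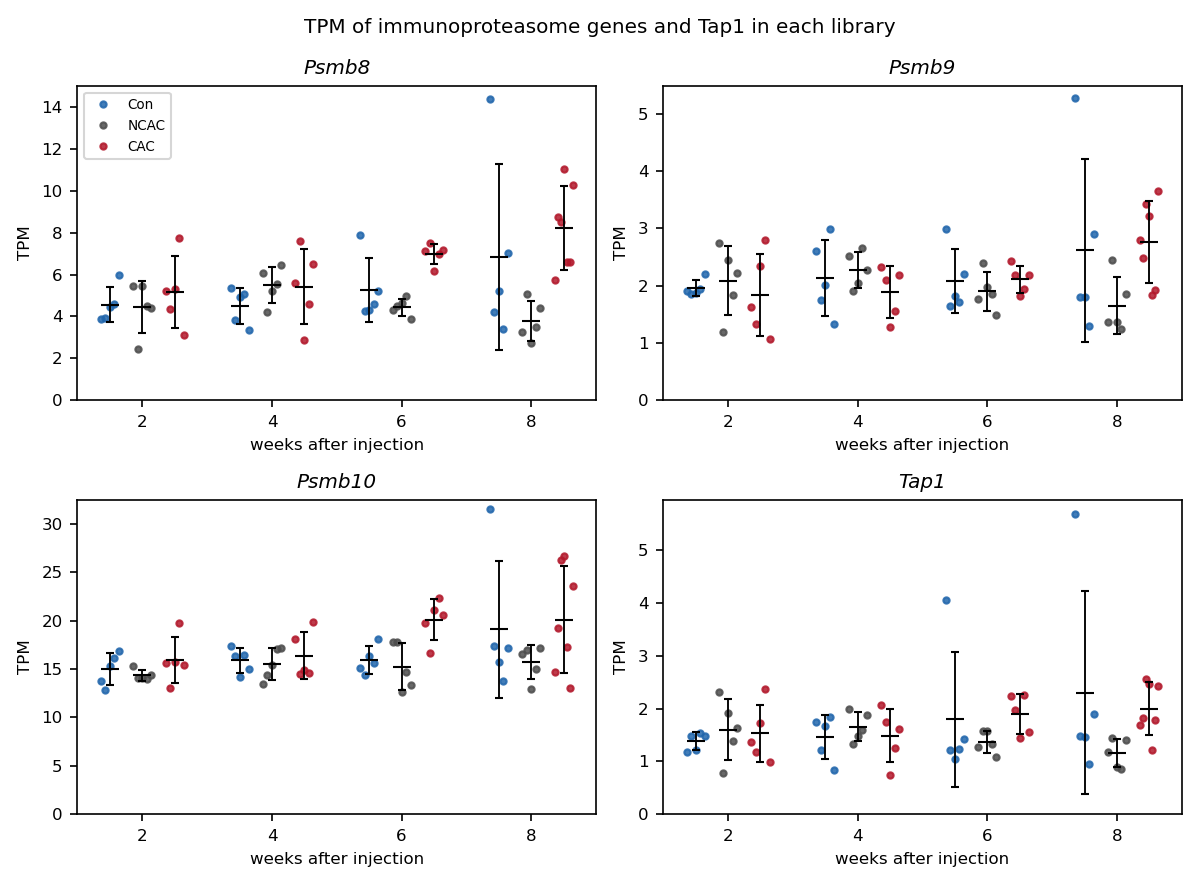
TPM of the immunoproteasome genes Psmb8, Psmb9 and Psmb10 and of the peptide transporter gene Tap1 in each library by weeks after injection; points are libraries, horizontal marks the mean and bars the SD. Con replicate 1 at 8 weeks, at 14.4 TPM of Psmb8, stands above all other libraries in every panel.

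Within CAC muscle at 8 weeks the libraries highest in the immunoproteasome genes were not those highest in the 26S subunits. Psmb10 was lowest in replicates 6 and 1, at 13.1 and 14.6 TPM, which had the highest Psmd4. It was highest in replicates 4, 3 and 7, at 26.7, 26.3 and 23.6 TPM. In Con the trio made up 4.24% to 5.92% of the TPM of the 6 paired subunits, apart from replicate 1 at 10.9%. In CAC it made up 4.38% and 4.74% in replicates 1 and 6, and 5.07% and 6.35% in replicates 5 and 2. In CAC replicates 3, 4 and 7 it made up 7.35% to 7.96%. The order was not a plain reversal: replicate 4, with the highest trio sum at 40.9 TPM, had Psmd4 at 182 TPM, and replicate 5, at 25.8 TPM, had it at 140.2. Psme1 had the same low libraries, 21.0 TPM in replicate 6 and 25.0 in replicate 1. The summed macrophage markers were 301 and 315 TPM in replicates 6 and 1, 446 and 684 TPM in replicates 5 and 2 and 373, 969 and 760 TPM in replicates 3, 4 and 7; their part in the order was not tested.

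The exchange of subunits was also measured as a ratio within each library. The log2 ratio of Psmb8 to Psmb5 was -4.19 ± 0.339 in CAC (SD, n = 7) and -5.07 ± 0.325 in NCAC (n = 5) at 8 weeks, a difference of 0.88 (exact permutation test, two-sided, p = 0.00253, and 0.0606 after adjustment over 24 such tests). The other 2 pairs differed by 0.39 (Psmb9 to Psmb6, exact p = 0.053) and 0.27 (Psmb10 to Psmb7, exact p = 0.222). Against Con the 3 differences at 8 weeks were 0.24, -0.019 and 0.072. None of the 24 tests passed the threshold after adjustment. With 5 libraries against 5 the smallest exact p is 0.00794.

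The genes around the proteasome were counted from lists. Beside these counts at 8 weeks stand 65.3% of all genes called higher and 5.55% lower against Con, and 24.6% higher and 21.2% lower after rescaling. Of 11 genes for proteins that bind or mature the proteasome 9 rose against Con at 8 weeks, among them Txnl1 by 0.70 and the ubiquitin receptor Adrm1 by 0.60; after rescaling 1 was higher, Txnl1, and 5 were lower. Of 6 genes that supply ubiquitin 5 rose, among them Ubb by 1.41, and 2 after rescaling. Of 10 genes of shuttles and of the p97 unfoldase 8 rose, and 2 rose and 2 fell after rescaling. All 9 muscle ubiquitin ligases rose, Trim63 by 2.03 and Fbxo32 by 1.46, and 4 after rescaling, both of these among them.

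Of a list of 11 regulators all 11 were higher in CAC than in Con at 8 weeks, and 9 after rescaling, beside the same 65.3% and 24.6% of all genes. The list holds Nrf1, nuclear respiratory factor 1, a different gene from Nfe2l1; without it the counts were 10 of 10 and 8. Ddi2 stands in this list and in that of the shuttles. Stat3 was at 50.4 ± 10.02 TPM in CAC and 12.8 ± 1.57 in Con (log2 1.88, adjusted p = 1.17e-17). Nfe2l1, the factor that raises proteasome subunit genes when the proteasome is short, was at 326 ± 23.4 TPM in CAC and 239 ± 21.1 in Con. Its change of 0.45 (adjusted p = 3.42e-05) was 0.053 after rescaling and no longer called (adjusted p = 0.602). Of 18 genes of antigen presentation and interferon response 5 rose against Con (65.3% of all genes) and 13 against NCAC (67.5%) at 8 weeks. After rescaling 1 rose and 2 fell against Con, and 6 rose and 0 fell against NCAC (24.8% of all genes higher, 20.8% lower). At 8 weeks the list summed to 1011 TPM in Con replicate 1 and to 316 to 531 TPM in the other Con libraries. No count of this list without Con replicate 1 is given.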

How the data were processed

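RNA of 62 gastrocnemius libraries was prepared with a stranded mRNA kit and sequenced on a NovaSeq 6000, per the labels' protocols. The deposited table gives TPM per gene as the authors computed them, on mm10 per the submitters' processing notes; which aligner, counter and gene models they used is not given in the sources used here. TPM keeps no depth, so none is stated. Limma's p-values rest on the spread between libraries, pooled per gene over all 12 groups, not only the 2 compared. In the 26S subunits the CAC libraries spread more widely than the Con libraries. Members, lists and tests were chosen with earlier results of these data known. Genes with at least 1 TPM in at least 5 libraries (12364 of 47643) were fitted with limma 3.58.1 in R 4.3.3 on log2(TPM + 1), which understates changes of low genes, with 12 group means over all libraries, two-sided tests and Benjamini-Hochberg adjustment at 0.05. Named by rule were the catalytic pairs, the highest and lowest change of each class at 8 weeks against Con, members called against the main direction, the 5 lowest p across weeks, members that failed the filter, Trim63, Fbxo32, Nfe2l1 and Stat3, and up to 3 genes of each other list; further names were chosen after their values were seen. Alternatives were a pseudocount of 0.1, other filters, median-ratio rescaling, leaving out mitochondrial genes, 2 groups alone, a replicate block and single libraries left out. Replicate numbers did not pair the libraries. On simulated data for CAC against Con at 8 weeks (12364 genes), 26% of 1.25-fold and 78% of 1.5-fold changes were called. Only 200 genes were changed there, with the same spread in all groups, whereas 65.3% of genes were called higher in the data. These shares therefore need not hold for the data. Figures were drawn with matplotlib 3.10.9.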

Additional observations from a re-analysis of the deposited data

Results flagged for a closer look

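Of 240 sets of values (20 named members in 12 groups), 26 held a library far from the others of its group, or 10.8%. Chance gives about 1 in 20 for a single set. The sets are not independent, because the members were read in the same libraries, so the 2 rates cannot be compared directly. CAC replicate 2 of 4 weeks was such a library for 9 members, with Psma7 at 128 TPM, Psma1 at 75.6, Psmb1 at 358, Psmd4 at 214, Psmc6 at 178, Psmd11 at 61.6, Psmd14 at 45.3, Psmb4 at 264 and Psmb3 at 108 TPM, each the highest of its group. In the other CAC groups the highest library stood apart for Psma1 at 2 weeks (replicate 5, 55.0 TPM), Psme3 at 6 weeks (replicate 1, 61.7) and Psmb7 at 8 weeks (replicate 1, 144).

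Among Con libraries, Psmb10 in replicate 1 of 8 weeks (31.5 TPM) and Psmb8 in replicate 1 of 6 weeks (7.90 TPM) stood above the rest. So did Psmb5 and Psma1 in replicate 2 of 8 weeks, at 172 and 53.3 TPM, and Psme3 in replicate 5 of 6 weeks at 43.6 TPM. Psmb7 in replicate 3 of 6 weeks, at 113 TPM, and Psmc3ip in replicate 3 of 2 weeks, at 1.06 TPM, stood below. At 2 weeks Psmb9 in replicate 5 (2.20 TPM) and Psmd14 in replicate 1 (37.4 TPM) stood apart. Among NCAC libraries the values were 15.3 TPM for Psmb10 (replicate 1) and 157 for Psmb5 (replicate 5) at 2 weeks, 195 for Psmb4 at 4 weeks (replicate 2), 141 for Psmb4 at 6 weeks (replicate 3, the lowest) and 124 for Psmd4 at 8 weeks (replicate 3).

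The difference between CAC and Con changed across the weeks for 9 members in limma's F test, where 12.1% of all genes were called. The count is for TPM as deposited and depended on the scaling and on single libraries, as given above. The adjusted p-values were 0.00989 for Psmb1, 0.0173 for Psmb4, 0.0237 for Psmd4, 0.0239 for Psma7, 0.0244 for Psmb3, 0.0297 for Psma3, 0.0421 for Psmc6, 0.0423 for Psma4 and 0.0484 for Psmc5.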

How the results depend on the processing

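The number of members called was within 1.5 times the reported one with a pseudocount of 0.1 or a filter at 5 TPM. Without a filter it fell from 10 to 6 for CAC against NCAC at 4 weeks. Median-ratio scaling gave 3, 15 and 10 members against Con at 4, 6 and 8 weeks, 0, 16 and 10 against NCAC, and 0 changing across weeks. Scaling together with leaving out Con replicate 1 of 8 weeks, chosen after the data were seen, gave 8 against Con at 8 weeks. Leaving out the mitochondrial genome gave 5 and 20 against Con at 4 and 8 weeks, 1 and 22 against NCAC, and 1 across weeks. Fitting 2 groups alone gave 1 against Con and 0 against NCAC at 4 weeks. Over the single changes of named genes, members and others, it ended 22 calls, made 3 and left 190 the same. Leaving out the mitochondrial genome ended 25 of these calls, made 2, turned 4 signs and left 184 the same. With a replicate block 5 members changed across weeks, and the block moved no other count past 1.5 times; correlations of same-numbered libraries were not all above 0.1. Leaving out single libraries gave 1 to 13, 30 to 38 and 33 to 37 members against Con at 4, 6 and 8 weeks, 0 to 16, 39 to 42 and 36 to 41 against NCAC, and 2 to 25 across weeks. Shares of all genes are given above for median-ratio scaling at single weeks and for leaving out Con replicate 1 of 8 weeks. They are not given for the other alternatives, nor for other single libraries left out here or above. Those counts alone do not separate the members from a shift over all genes.

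Among named members called with either scaling, signs turned by median-ratio scaling, which lowers changes in CAC, or by leaving out mitochondrial genes. Scaled log2 changes against Con at 6 weeks were -0.069 for Psmb5, -0.14 for Psmb6, -0.20 for Psmb7, -0.012 for Psma1, -0.056 for Psme3 and -0.30 for Psmg2. At 8 weeks they were -0.28 for Psmb5, -0.24 for Psmb6, -0.38 for Psmb7, -0.077 for Psmc6, -0.23 for Psmd14, -0.050 for Psme3, -0.36 for Psme1, -0.28 for Psmg2, -0.0095 for Psmc3ip and -0.091 for Psmb4. Against NCAC at 6 weeks they were -0.019 for Psmb10, -0.15 for Psmb5, -0.17 for Psmb6, -0.25 for Psmb7, -0.14 for Psma1 and -0.024 for Psme3. At 8 weeks they were -0.090 for Psmb10, -0.35 for Psmb5, -0.30 for Psmb6, -0.38 for Psmb7, -0.10 for Psmc6, -0.18 for Psmd14, -0.058 for Psme3, -0.29 for Psme1, -0.28 for Psmg2, -0.0085 for Psmc3ip, -0.12 for Psmb4 and -0.041 for Psmb3. Of named members called with neither, scaling turned Psmb9 (-0.18) and Psmc3ip (-0.0056) at 6 weeks and Psmb9 (-0.14), Psmb10 (-0.29) and Psma1 (-0.17) at 8 weeks against Con, and Psmb9 (-0.17) and Psmc3ip (-0.16) at 6 weeks and Psma1 (-0.19) at 8 weeks against NCAC. Without mitochondrial genes Psmb6 was at -0.038 and Psmb7 at -0.18 against Con at 8 weeks, and Psmb7 at -0.070 and -0.13 against NCAC at 6 and 8 weeks. TPM gives no depth, so counting error of low genes such as Psmb9 and Psme2b is unknown.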
